A study of Mus musculus with 13 samples.

Results

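Glucocorticoid-induced genes were described as a set of 7 genes, Fkbp5, Sgk1, Tsc22d3, Nfkbia, Cdkn1a, Zbtb16 and Errfi1, out of 32285 genes counted in single nuclei of the mouse hippocampus. The genes were chosen by name, with earlier results of these data known, and each matched 1 gene of the count tables. In the annotation of build GRCm38 the genes called below lie at chr17:28399094-28517527 (Fkbp5), chr10:21882184-21999903 (Sgk1), chr12:55489410-55492647 (Nfkbia), chr17:29090976-29100727 (Cdkn1a) and chr9:48654297-48836222 (Zbtb16). The span of Fkbp5 overlaps Gm49838 on the same strand and Gm22146 on the opposite strand, and that of Errfi1, at chr4:150853919-150868892, overlaps 1700045H11Rik on the opposite strand. How reads in these overlaps were counted is not given, so the values of Fkbp5 and Errfi1 may include reads of these neighbours. Nuclei came from 13 female C3HB6F1 hybrid mice (C3B6F1 in the series' design text), with 1 library per mouse made from whole frozen hippocampus by 10x Genomics droplet sequencing. The groups were young mice of 5 months fed ad libitum (n = 3), old mice of 24 months fed ad libitum (n = 3), old mice of 24 months on acute dietary restriction begun at 20 months (n = 3) and old mice of 24 months on long-term dietary restriction begun at 5 months (n = 4). All mice carried the same hybrid background, and the labels named no transgene or drug. No hormone levels were used here, so the name of the set describes what the genes are known for and is not a result.

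Glucocorticoids, of which corticosterone is the main one in mice, bind the glucocorticoid receptor, which then enters the nucleus and binds response elements in DNA to raise or lower transcription of nearby genes. The hormone follows the daily rhythm and rises with stress. The genes of the set are widely used as readouts of receptor activity in brain, where glial and vascular cells as well as neurons express the receptor. Several of them also answer to other signals: Cdkn1a to p53 and Nfkbia to NF-kB.

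The 13 libraries held 3524 to 12368 barcodes and 38546292 to 80538090 UMIs each, and 98041 nuclei in 35 clusters remained after filtering. Clusters were named from marker genes as X-like classes, which placed 79721 nuclei in 14 classes and left 18320 unnamed. Of 104066 distinct barcode sequences, 1351 occurred in more than 1 library. The 4 libraries numbered 1, with 1 in each group, stood apart from the other 9: they held 35 to 145 oligodendrocyte-like nuclei against 548 to 1256, or 0.599% to 3.08% of named nuclei against 8.11% to 22.0%. Tests, shares and correlations in that class are therefore also given without them. A cluster of 2215 nuclei had all 10 oligodendrocyte markers raised. Its leading genes were Enpp6, A530053G22Rik, A330049N07Rik, Hapln2, Carns1, Prr5l, Anln, Gm19500, Gm29455 and Cyp27a1, and its stage was not tested. Because Enpp6, which was listed as a marker of committed oligodendrocyte precursors, led it, the cluster was kept out of the oligodendrocyte-like class. This removed 26.39% to 36.07% of the nuclei of both together per old ad libitum mouse, 17.18% to 19.72% under acute restriction, 20.77% to 30.22% under long-term restriction and 3.55% to 25.5% in young mice, so old ad libitum and acutely restricted mice did not overlap.

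Promoter sequence was in the RefSeq table (build GRCm38.p6) for 6 of the 7 genes, in 15 windows of the 250 bases before an annotated start. The complete glucocorticoid response element, AGAACA followed after any 3 bases by TGTTCT and searched on both strands, was found in 1 of these windows, before 1 of the starts of Sgk1, and in 3 of all 32851 windows (0.00913%). The hexamer AGAACA alone, which is contained in the complete element, was found on either strand in 4 of the 15 windows, 3 of Sgk1 and 1 of Tsc22d3, and in 16.1% of all windows. The p53 response element was in none of the 15 windows and in 3 of all windows, and the kappaB site was in the window of Nfkbia and in 3.90% of all windows. The Sgk1 window with the complete element and the Nfkbia window with the kappaB site are shown because each holds the single match of that motif among the 15. Capitals mark the element in the first and the site in the second, and a match describes the letters only. An absence covers only matches to the full motif in these 250 bases, and sequence farther away was not searched.
Sgk1, chr10:21993640-21993889, plus strand: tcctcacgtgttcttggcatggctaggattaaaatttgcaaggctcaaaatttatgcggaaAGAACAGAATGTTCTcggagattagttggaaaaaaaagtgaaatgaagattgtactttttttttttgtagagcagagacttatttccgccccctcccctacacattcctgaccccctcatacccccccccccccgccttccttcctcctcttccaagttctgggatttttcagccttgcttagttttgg
Nfkbia, chr12:55492648-55492897, minus strand: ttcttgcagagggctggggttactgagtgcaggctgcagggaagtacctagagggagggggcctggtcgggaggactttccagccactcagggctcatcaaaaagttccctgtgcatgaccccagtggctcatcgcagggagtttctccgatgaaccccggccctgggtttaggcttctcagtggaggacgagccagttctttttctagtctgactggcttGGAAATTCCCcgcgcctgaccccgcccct
The element in the Sgk1 window spans positions -189 to -175, counted back from the annotated start. That window overlapped no annotated Sgk1 exon and lay inside the span of the longer Sgk1 transcripts, and the Nfkbia window lay outside the gene.

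In mice fed ad libitum, the 7 genes were found in different classes. Levels below are UMIs of the gene relative to all UMIs of the class, in CPM, as mean ± SD over the 6 young and old mice, or over fewer where a class had under 20 nuclei in a library, and were compared between classes for each gene but not between genes. The order is a description with no test. Fkbp5, a co-chaperone of the receptor complex that lowers the receptor's affinity for hormone, was highest in fibroblast-like nuclei (390 ± 87.2, n = 4), then in microglia-like (177 ± 52.9, n = 6), macrophage-like (141 ± 34.6, n = 3) and granule neuron-like nuclei (116 ± 10.9, n = 6), and lowest in astrocyte-like nuclei (8.48 ± 2.86, n = 6). The fibroblast-like level lay beyond the spread of the next, and the following 3 overlapped in turn. Of the barcodes in the macrophage-like cluster 46.86% were removed as doublets. The 3 macrophage-like sums had medians of 3829, 2360.5 and 2730 UMIs per nucleus, against 933, 1326 and 2255.5 in microglia-like nuclei of these mice. Whether doublets remained in this class was not tested. Sgk1, a kinase that acts on ion channels and transporters, was highest in oligodendrocyte precursor-like (196 ± 25.2), CA3-like (172 ± 42.9) and inhibitory neuron-like nuclei (139 ± 13.6), which overlapped in turn, and lowest in astrocyte-like nuclei (7.36 ± 5.06, n = 6 each).

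Tsc22d3, which encodes the anti-inflammatory protein GILZ, was highest in oligodendrocyte-like nuclei (138 ± 16, n = 6), followed within the spread by fibroblast-like (104 ± 46.3, n = 4), endothelial-like (92.2 ± 39.5, n = 4) and astrocyte-like nuclei (67.9 ± 27.9, n = 6). Its mean in each class of neurons lay between 0 and 5.63. Nfkbia, the inhibitor that holds NF-kB in the cytoplasm, was at 372 ± 89.9 in endothelial-like nuclei (n = 4), beyond the spread of every other class, of which astrocyte-like nuclei were next at 21.9 ± 11. Cdkn1a, which encodes the cell cycle inhibitor p21, was at 87.5 ± 16.5 in endothelial-like nuclei (n = 4), also beyond the spread of the others, and at 3.15 ± 2.24 in oligodendrocyte-like nuclei. Zbtb16, a zinc finger transcription factor, had its highest mean in granule neuron-like nuclei (302 ± 56.7) and its lowest in microglia-like nuclei (11.8 ± 10.7), with neighbours in the order overlapping at the upper ranks. Errfi1, which encodes a feedback inhibitor of the EGF receptor, was at 109 ± 78.4 in fibroblast-like nuclei (n = 4) and at 49.9 ± 28.9 in oligodendrocyte-like nuclei, and its neighbours overlapped throughout the upper ranks.

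**Figure D1:**
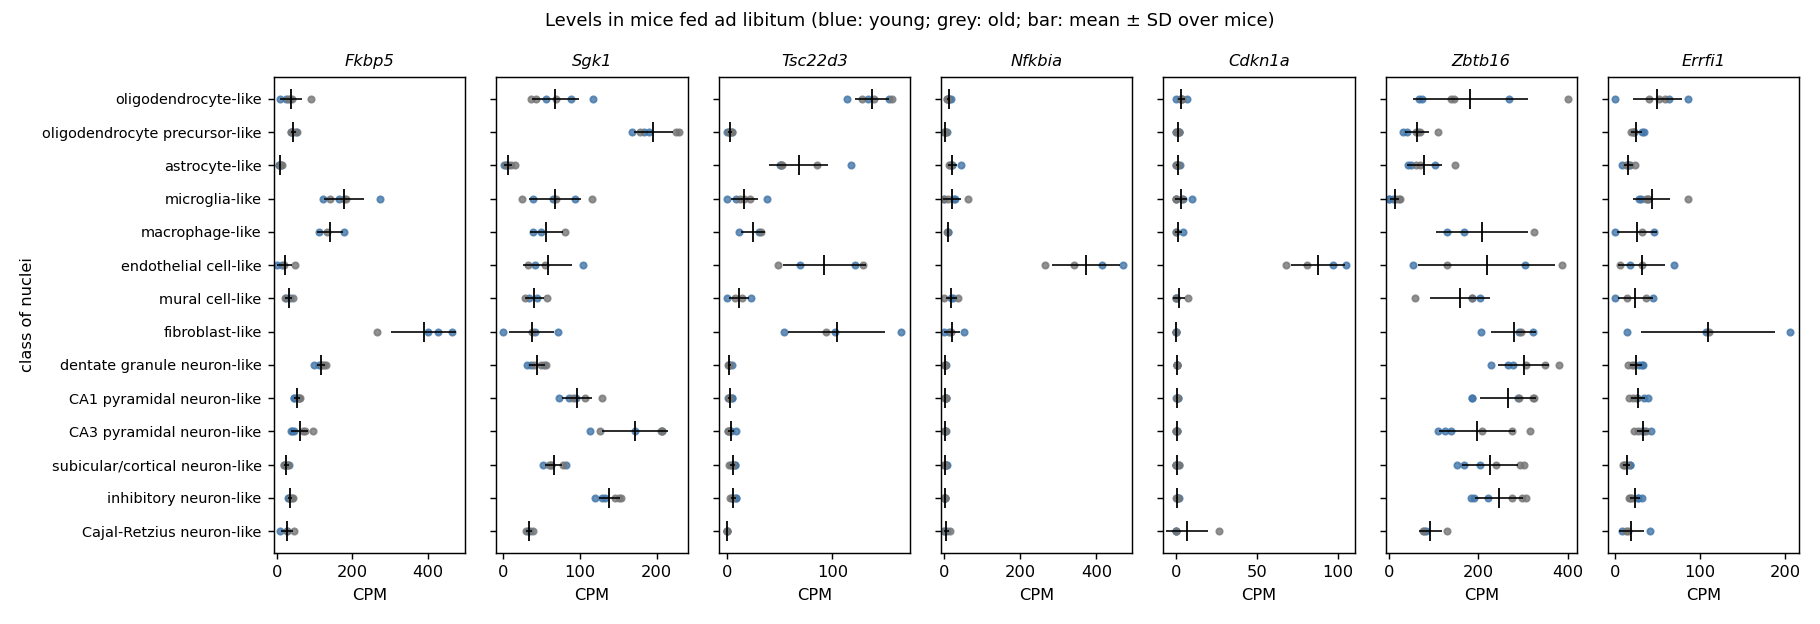
Levels of the 7 genes (horizontal axis, CPM, scaled separately for each gene) in 14 classes of nuclei (vertical axis) from mice fed ad libitum; points are mice (blue, young; grey, old) and bars are mean ± SD. Nfkbia and Cdkn1a stand out in endothelial-like nuclei at 372 and 87.5, and Tsc22d3 is lower in neurons than in most glia.

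Gene by gene tests were possible in 11 classes, on UMIs summed per mouse and class. Fkbp5 passed the filter on low counts in 9 classes, Sgk1 in 9, Tsc22d3 in 6, Nfkbia in 6, Cdkn1a in 3, Zbtb16 in 10 and Errfi1 in 8, which made 51 pairs of gene and class. Of these, 2 passed only through the acutely restricted mice, Cdkn1a in oligodendrocyte-like and Tsc22d3 in endothelial-like nuclei. Values given per mouse below are CPM scaled within a class by TMM factors, listed in the order of the replicate numbers in the labels (old ad libitum mice were numbered 1, 2 and 4), and log2 fold changes are those fitted by edgeR's quasi-likelihood test with Benjamini-Hochberg adjustment over all genes of the class.

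Acute restriction was compared with ad libitum feeding in old mice. Of the 51 pairs, 5 were called at an adjusted p below 0.05, all higher under acute restriction, where 0.208% of all 105979 pairs of gene and class were called. Calls in oligodendrocyte-like nuclei were made for 4 of the 7 genes, Fkbp5, Sgk1, Nfkbia and Cdkn1a, where 1.96% of 10190 genes were called in either direction and 0.932% were called higher. Cdkn1a entered both counts through the group in which it was high, so its call adds no support to them. The genes were chosen with earlier results of these data known, so the counts are not independent evidence. The remaining call was Fkbp5 in oligodendrocyte precursor-like nuclei, where 0.118% of genes were called. All 7 genes had a positive fold change in oligodendrocyte-like nuclei, with a median of 1.93 beside 0.0036 over all genes tested. Cdkn1a is among the 7, and since it passed the filter only through the acutely restricted mice, its sign adds no support.

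Fkbp5 in oligodendrocyte-like nuclei was at 177, 204 and 269 CPM in the acutely restricted mice and at 99.0, 28.6 and 40.4 in old mice fed ad libitum. Each restricted mouse lay above each control, and the first control library, numbered 1, was the highest of the 3. The log2 fold change was 2.42 ± 0.46 (SE), with an adjusted p of 0.0272. Sgk1 was at 301, 237 and 403 CPM under acute restriction and at 75.2, 44.2 and 36.9 in the controls, again with no overlap. The log2 fold change of Sgk1, at 2.80 ± 0.57 with an adjusted p of 0.0431, was the highest of the 7. Of the 5 calls this one held under the fewest alternatives: it held in 8 of 25 alternatives and in 2 of 13 omissions of a single mouse, with adjusted p from 1.9e-05 to 0.443 and changes from 2.14 to 3.01. It was lost on leaving out any young, old ad libitum or acutely restricted mouse or long-term replicate 2 or 4, with the replicate number as a block (2.89, adjusted p 0.0669 by edgeR), with sums of at least 50 nuclei (adjusted p 0.0622 by edgeR), with the gene length trend removed (adjusted p 0.0534 by edgeR) and with no filter on low counts (adjusted p 0.0507 by edgeR).

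Nfkbia was at 54.2, 25.2 and 33.1 CPM under acute restriction and at 11.9, 8.48 and 6.96 in the controls. Its groups did not overlap, and its log2 fold change of 1.93 ± 0.38 had the lowest adjusted p of the 7, 0.00287. Cdkn1a was at 24.6, 13.2 and 12.1 CPM against 3.96, 2.68 and 3.48, also with no overlap. These values rested on 5, 31 and 20 UMIs against 1, 6 and 5. The log2 fold change of Cdkn1a was 2.12 ± 0.56, with an adjusted p of 0.0348 by edgeR. Of the 13 mice only the 3 acutely restricted ones reached the minimum of the filter, 8.84 CPM in this class. With no filter on low counts the change was 2.11 (adjusted p 0.00726 by edgeR), and with the replicate number as a block it was 1.97 and not called (adjusted p 0.103 by edgeR).

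The other 3 genes were not called in oligodendrocyte-like nuclei. Zbtb16 was at 419, 724 and 636 CPM under acute restriction and at 435, 142 and 147 in the controls. The restricted library numbered 1 lay just below the control library numbered 1, so the groups overlapped, and the log2 fold change was 1.55 ± 0.67 (adjusted p 0.437 by edgeR). Errfi1 was at 113, 73.0 and 111 CPM against 63.3, 53.6 and 40.4, without overlap, with a log2 fold change of 0.93 ± 0.37 (adjusted p 0.341 by edgeR). Tsc22d3, which had its highest ad libitum level in this class, was at 153, 203 and 245 CPM against 170, 143 and 130, with a log2 fold change of 0.55 ± 0.18 (adjusted p 0.112 by edgeR). In all, 5 of the 7 genes did not overlap between the groups with acute restriction higher, as did 8.18% of all genes in the class. Cdkn1a, 1 of the 5, had passed the filter only through the acutely restricted mice, so its lack of overlap adds no support to that count.

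**Figure D2:**
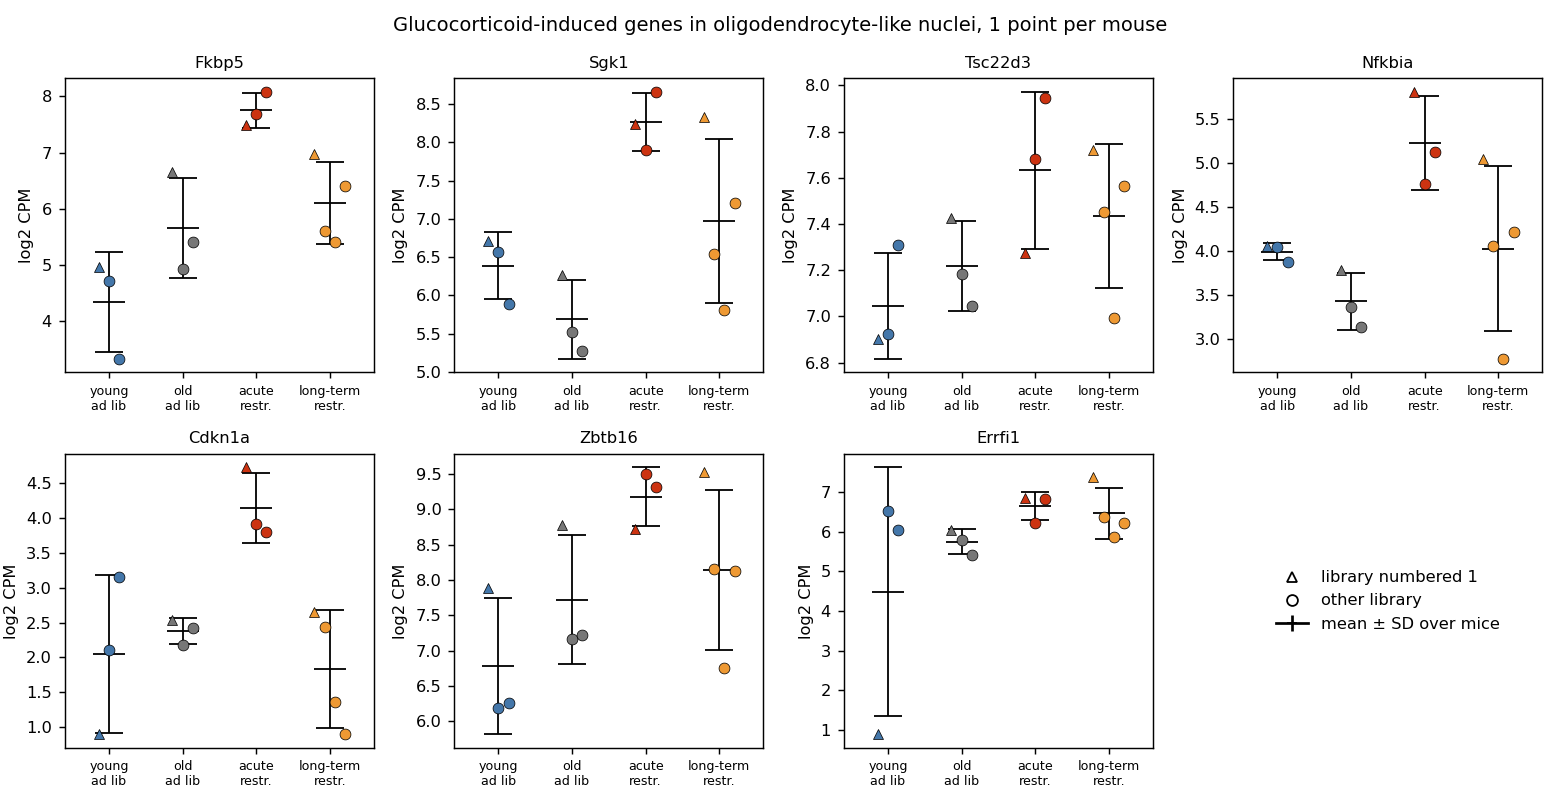
Log2 CPM (vertical axis, prior count of 2) of the 7 genes in oligodendrocyte-like nuclei by group (horizontal axis); each point is a mouse, triangles are libraries numbered 1, and bars are mean ± SD. Acutely restricted mice lie above all old mice fed ad libitum for Fkbp5, Sgk1, Nfkbia, Cdkn1a and Errfi1, and long-term restricted replicate 1 is the highest of its group for all 7 genes.

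The share of oligodendrocyte-like nuclei with at least 1 UMI of Sgk1 was 31.8% to 44.6% per acutely restricted mouse and 7.15% to 16.3% per control. After each nucleus was thinned to 1000 UMIs, the shares were 18.8% to 33.4% and 3.86% to 8.97%, with 71 and 34 shallower nuclei left out of 2425 and 1950. For Fkbp5 the thinned shares were 15.7% to 20.6% and 2.52% to 10.3% (unthinned 22.2% to 30.9% and 4.61% to 17.5%). Without the libraries numbered 1, the thinned shares under acute restriction and in the controls were 18.8% to 33.4% and 3.86% to 4.45% for Sgk1 and 17.4% to 20.6% and 2.52% to 3.71% for Fkbp5. In astrocyte-like nuclei, the class with the lowest level of Sgk1, 1.77% to 3.65% of nuclei had an Sgk1 UMI under acute restriction and 2.21% to 3.66% in the controls. For Sgk1 the groups did not overlap in oligodendrocyte-like nuclei and overlapped in astrocyte-like nuclei of the same mice. Fkbp5 shares in astrocyte-like nuclei without the libraries numbered 1 did not overlap, at 10.3% to 12.9% against 2.55% to 3.66%. After thinning they were 3.34% to 7.22% against 0% to 1.28%, over 2 mice per group. Median UMIs per nucleus were 1488 to 1788 in oligodendrocyte-like and 2277.5 to 3060 in astrocyte-like nuclei of restricted mice.

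UMIs per oligodendrocyte-like nucleus differed between these groups. Over all barcodes kept in a library the medians overlapped, at 6884 to 11375 in the old controls and 5440 to 7792 under acute restriction. Median UMIs per oligodendrocyte-like nucleus were 1835.5 to 2798.5 in the old controls and 1488 to 1788 under acute restriction, which do not overlap. With that median as a covariate in edgeR none of the 51 pairs was called (0.0472% of all pairs were), and the log2 fold changes were 2.50 for Fkbp5, 2.14 for Sgk1, 1.36 for Nfkbia and 2.11 for Cdkn1a. Its part in the result was not tested further. Summed markers of oligodendrocyte precursors (8 genes) in oligodendrocyte-like nuclei were lower under acute restriction, at 153 to 168 CPM against 221 to 253, as were those of committed oligodendrocyte precursors (8 genes), at 907 to 1001 against 1048 to 1114, and those of inhibitory neurons (12 genes), at 2304 to 2498 against 2776 to 3685. Summed markers of astrocytes (10 genes, 297 to 335 against 285 to 332), microglia (10 genes, 59.1 to 74.7 against 41.0 to 67.3) and endothelial cells (10 genes, 9.86 to 22.3 against 7.65 to 15.8) overlapped between the groups. Of these lists, 1 microglial marker was at 0 in the restricted group. Summed markers of Cajal-Retzius neurons (8 genes) were also lower without overlap, at 4.93 to 21.7 CPM under acute restriction against 21.9 to 45.9. Of these 8 genes, 2 were at 0 under acute restriction and 3 in the controls. The part of these markers in the result was not tested.

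Single libraries decided calls. Without old ad libitum replicate 2 none of the 51 pairs was called, without old ad libitum replicate 4 only Fkbp5 in oligodendrocyte precursor-like nuclei was, and without acute restriction replicate 3 only Nfkbia in oligodendrocyte-like nuclei was. Without old ad libitum replicate 1, acute restriction replicate 1 or acute restriction replicate 2, 3 pairs were called. The 4 fold changes stayed positive in each of these fits. With the 4 libraries numbered 1 left out, which left 2 mice in each of the 2 groups, 10 pairs were called, all higher (0.361% of all pairs). In that fit Fkbp5 (2.80 ± 0.35, adjusted p 0.00253 by edgeR), Nfkbia (1.87 ± 0.39), Tsc22d3 (0.70 ± 0.18) and Errfi1 (0.94 ± 0.23) were called in oligodendrocyte-like nuclei, whereas Sgk1 (2.95, adjusted p 0.0521) and Cdkn1a (2.04, adjusted p 0.078) were not. DESeq2 called 6 of the 51 pairs (0.163% of all pairs), among them Fkbp5, Sgk1 and Nfkbia in oligodendrocyte-like nuclei, and gave no adjusted p for Cdkn1a there. With the cluster led by Enpp6 included, 6 pairs were called, the 5 named above and Tsc22d3 in oligodendrocyte-like nuclei (0.64, adjusted p 0.032 by edgeR). The share of all pairs called in that fit is not given here, so this count has no background beside it.

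Fkbp5 was also measured in other glia. In oligodendrocyte precursor-like nuclei it was at 77.7, 83.1 and 111 CPM under acute restriction and at 41.8, 38.6 and 53.1 in old mice fed ad libitum. The groups did not overlap, and the log2 fold change was 1.03 ± 0.20 (adjusted p 0.0276 by edgeR). In the same sums the markers of inhibitory neurons (12 genes, 6613 to 7731 CPM under acute restriction against 5602 to 5867) and CA1 neurons (8 genes, 196 to 216 against 118 to 161) were higher without overlap. Those of oligodendrocytes (10 genes, 230 to 417 against 433 to 682) and committed precursors (8 genes, 1899 to 2272 against 2274 to 2672) were lower without overlap, and the part of these markers in the result was not tested. In astrocyte-like nuclei Fkbp5 was at 33.5, 44.2 and 66.7 CPM against 8.94, 8.43 and 11.7. That fold change, 2.41 ± 0.46, was as large as in oligodendrocyte-like nuclei but missed the threshold (adjusted p 0.0696 by edgeR), and it passed with the libraries numbered 1 left out (adjusted p 0.00136). In microglia-like nuclei, where Fkbp5 was at 498, 423 and 902 CPM against 223, 214 and 165, the fold change was 1.63 ± 0.32 (adjusted p 0.166 by edgeR, 0.0294 without the libraries numbered 1). The 3 control microglia-like sums held 15 to 48 Fkbp5 UMIs.

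In neurons the fitted changes of Fkbp5 under acute restriction were -0.08 ± 0.11 in granule neuron-like, 0.13 ± 0.13 in CA1-like, -0.12 ± 0.19 in CA3-like, -0.28 ± 0.14 in inhibitory neuron-like and 0.48 ± 0.31 in subicular or cortical excitatory neuron-like nuclei. In endothelial-like nuclei, the class with the most Nfkbia and Cdkn1a, the changes over 3 restricted and 2 control mice were 0.17 ± 0.34 for Nfkbia and 0.30 ± 0.72 for Cdkn1a, neither of them called. The neuronal changes of Sgk1 were -0.07 ± 0.20, 0.09 ± 0.18, -0.01 ± 0.27, -0.02 ± 0.10 and 0.10 ± 0.22 in the same order of classes. No neuronal class gave a call, and in granule neuron-like nuclei the Fkbp5 values rested on 1336 to 3541 UMIs per mouse of the compared groups. Zbtb16 in astrocyte-like nuclei was at 113, 240 and 314 CPM against 155, 69.5 and 58.6 and was not called (1.08 ± 0.61, adjusted p 0.921 by edgeR). The 2 restricted mice not numbered 1 lay above both controls not numbered 1, and without the libraries numbered 1 the change was 2.07 ± 0.23 (adjusted p 1.79e-06).

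**Figure D3:**
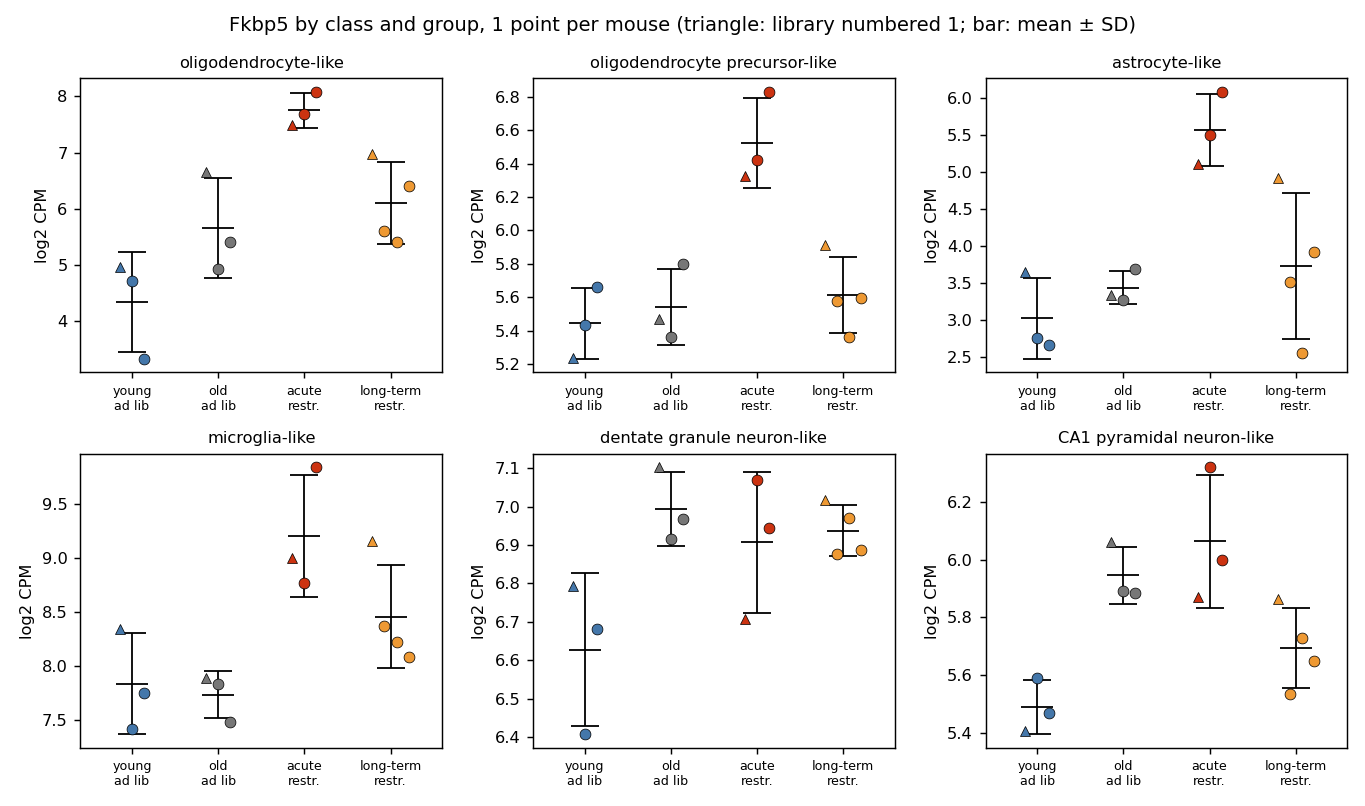
Log2 CPM of Fkbp5 (vertical axis, prior count of 2) by group (horizontal axis) in 6 classes; points are mice, triangles are libraries numbered 1, bars are mean ± SD. The 3 acutely restricted mice lie above the 3 old mice fed ad libitum in the 4 glial classes and overlap them in granule neuron-like and CA1-like nuclei.

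Whether the acute change differed between classes was tested on the difference within each mouse between oligodendrocyte-like nuclei and each other class, with limma. None of 44 pairs of gene and class was called (2 of all 73184, 0.00273%), and 19 of the 44 had an unadjusted p below 0.05, as did 3197 of all 73184. The pairs of a gene share the same oligodendrocyte-like values of the same mice, so the 44 are not separate results. No other tool was run for this test. The Fkbp5 change was larger in oligodendrocyte-like than in inhibitory neuron-like nuclei by 2.35 ± 0.50 on the log2 scale (limma, unadjusted p 0.000585, adjusted p 0.71). Against astrocyte-like nuclei the difference for Fkbp5 was -0.04 ± 0.45. For Sgk1 the difference was 2.60 ± 0.58 against inhibitory neuron-like (adjusted p 0.828 by limma) and 2.56 ± 0.91 against astrocyte-like nuclei (adjusted p 0.964). No change was therefore shown to be particular to 1 class.

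**Figure D4:**
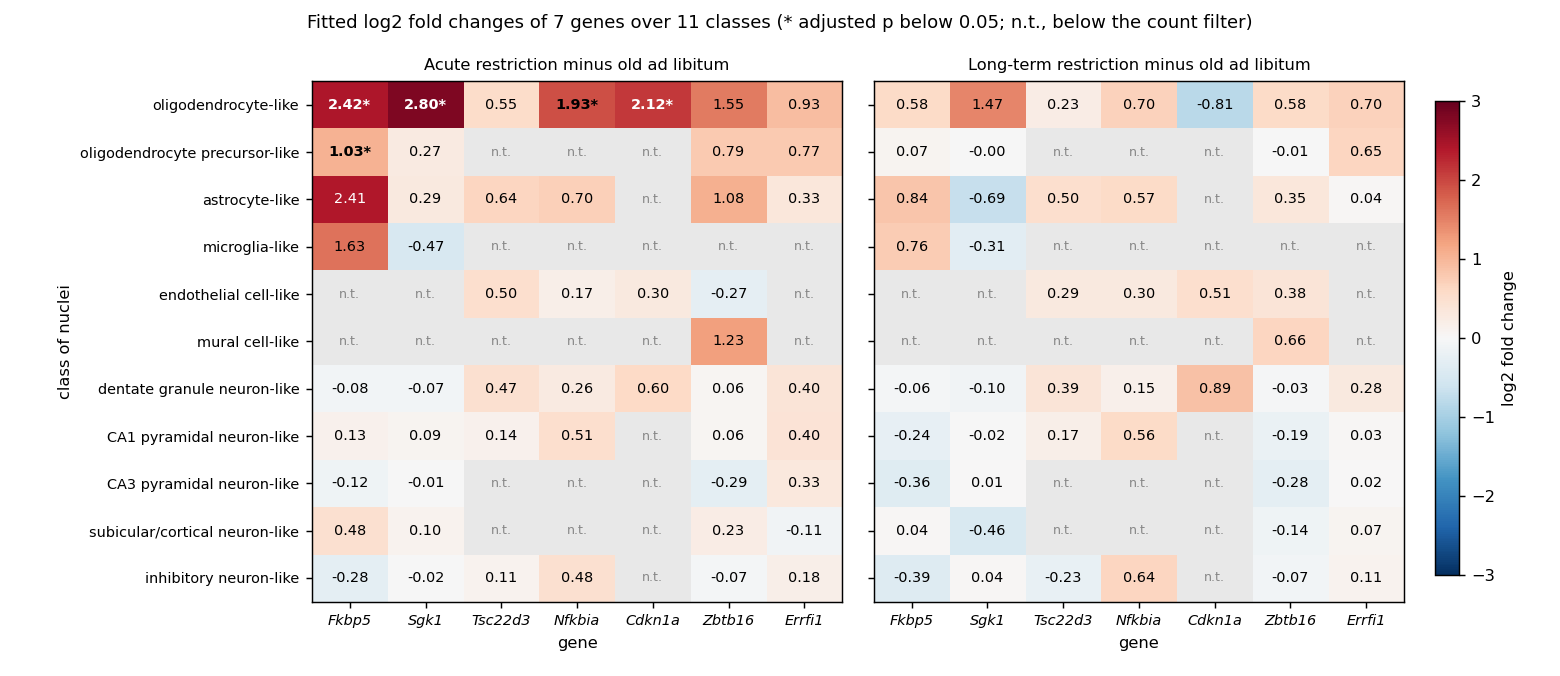
Fitted log2 fold changes against old mice fed ad libitum (colour and printed value) for the 7 genes (columns) in 11 classes (rows), under acute restriction (left) and long-term restriction (right); asterisks mark an adjusted p below 0.05 and cells marked n.t. did not pass the filter on low counts. The 5 called cells are in the acute panel, in oligodendrocyte-like and oligodendrocyte precursor-like nuclei.

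Long-term restriction was compared with the same old mice fed ad libitum, so both restriction contrasts share these 3 controls. None of the 51 pairs was called, where 0.0349% of all pairs were (0.226% in oligodendrocyte-like nuclei). With edgeR 5 of the 51 had an unadjusted p below 0.05, as did 5048 of all 105979, and DESeq2 called none (0.0566% of all pairs). In oligodendrocyte-like nuclei Fkbp5 was at 125, 46.7, 40.7 and 82.5 CPM in the 4 long-term restricted mice, with a log2 fold change of 0.58 ± 0.48 (adjusted p 0.807 by edgeR). Sgk1 was at 320, 91.3, 54.3 and 146 CPM, with a log2 fold change of 1.47 ± 0.58 (adjusted p 0.463 by edgeR). Replicate 1, one of the libraries numbered 1, was the highest of the 4 mice for all 7 genes, and replicate 3 was the lowest for Fkbp5, Sgk1, Tsc22d3, Nfkbia, Zbtb16 and Errfi1. Nfkbia was at 31.1, 14.9, 5.00 and 16.7 CPM (0.70 ± 0.42) and Cdkn1a at 4.45, 3.54, 0.714 and 0 CPM (-0.81 ± 0.76, on 1, 5, 1 and 0 UMIs). Without long-term replicate 2 the Cdkn1a change was -1.86, without replicate 4 it was -0.39, and neither was called. Over all single omissions the changes ran from 0.189 to 0.885 for Fkbp5, 1.08 to 1.81 for Sgk1 and 0.537 to 1.09 for Nfkbia. The absence of a Cdkn1a UMI in replicate 4 allows up to 2.65 CPM, taken as 3 UMIs, from counting error alone. The median over the 7 genes was 0.58 beside 0.0055 over all genes, with 6 of 7 positive. Without the libraries numbered 1 none of the 7 was called in this class, and the changes were 0.71 for Fkbp5, 1.22 for Sgk1, 0.60 for Nfkbia and -0.94 for Cdkn1a. In oligodendrocyte-like sums the summed markers of oligodendrocyte precursors (8 genes) were lower after long-term restriction, at 151 to 187 CPM against 221 to 253. Those of macrophages (8 genes) were higher, at 3.54 to 8.90 against 0 to 2.09, both without overlap. The part of these markers in the changes was not tested.

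Long-term and acute restriction were also compared directly. Cdkn1a in oligodendrocyte-like nuclei was the single pair called of 51 (0.0104% of all pairs were called, and 0.108% in that class), with a lower level after long-term restriction. All 4 long-term values named above lay below the 3 acute values, and the log2 fold change was -2.94 ± 0.59 (adjusted p 0.0222 by edgeR). Without the libraries numbered 1 it was -2.98 (adjusted p 0.0456 by edgeR). The gene had passed the filter only through the acutely restricted mice, so its call and its lack of overlap add no support to that count. With no filter the change was -2.94 (adjusted p 0.000295 by edgeR). DESeq2 called none of the 51 (0.00944% of all pairs), but it gave no adjusted p for Cdkn1a in this class and so could not call it. The call was lost with median UMIs per nucleus as a covariate (-2.93, adjusted p 0.0921 by edgeR) and with the cluster led by Enpp6 included (-2.82, adjusted p 0.0778 by edgeR), and the shares of nuclei in that cluster, given above, did not overlap between the 2 groups. In the same sums the markers of inhibitory neurons (12 genes, 2695 to 3284 CPM after long-term restriction against 2304 to 2498) and of committed oligodendrocyte precursors (8 genes, 1031 to 1182 against 907 to 1001) were higher without overlap. Their part in the result was not tested. When these 2 groups alone were fitted the Cdkn1a call was lost, and the single call was Fkbp5 in oligodendrocyte precursor-like nuclei (-0.96, adjusted p 0.0408 by edgeR), where 0.017% of all pairs were called. In fits over all 4 groups the Cdkn1a call was lost without acute restriction replicate 1 or 2 or long-term restriction replicate 3 or 4. The Cdkn1a changes ran from -4.01 to -2.51 over all single omissions. Fkbp5 also did not overlap in oligodendrocyte-like nuclei (-1.84 ± 0.40, adjusted p 0.208 by edgeR), and with the libraries numbered 1 left out it was called lower in oligodendrocyte-like, oligodendrocyte precursor-like and astrocyte-like nuclei (-2.08, -1.19 and -2.26), among 6 pairs called in that fit (0.0642% of all pairs).

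Age was tested between the old and the young ad libitum groups. Of the 51 pairs 1 was called, where 1.44% of all pairs were: Zbtb16 in granule neuron-like nuclei was higher in old mice. It was at 401, 357 and 309 CPM in old and 255, 195 and 259 CPM in young mice, without overlap, and the log2 fold change was 0.59 ± 0.13 (adjusted p 0.0396 by edgeR). In that class 2.74% of genes were called, and 2 of the 7 genes, Fkbp5 and Zbtb16, were higher in old mice without overlap, as were 17.3% of all genes. Zbtb16 did not overlap between the ages in CA3-like nuclei either, at 224, 281 and 311 against 107, 125 and 127 CPM (1.18 ± 0.19, adjusted p 0.0712), nor in inhibitory neuron-like nuclei, at 284, 300 and 309 against 180, 170 and 217 CPM (0.66 ± 0.14, adjusted p 0.0778). DESeq2 called Zbtb16 in all 3 of these classes, together with Fkbp5 in CA3-like and granule neuron-like nuclei (5 of 51, where 3.14% of all pairs were called).

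The ageing call was lost on leaving out acute restriction replicate 2 or 3, old ad libitum replicate 1, 2 or 4, young ad libitum replicate 2, or long-term restriction replicate 1 or 4, with changes from 0.46 to 0.68 over all single omissions. When a trend of each library with gene length was removed, Zbtb16, which spans 181.9 kb, was not called, with a change of 0.36 (adjusted p 0.14 by edgeR), and with median UMIs per nucleus as a covariate the change was 0.30 (adjusted p 0.648 by edgeR). With that covariate 1 of the 51 pairs was called, Zbtb16 in CA3-like nuclei (1.27 ± 0.22, adjusted p 0.0303 by edgeR), where 0.0425% of all pairs were. A term for the libraries numbered 1 gave 6 calls and leaving these libraries out gave 5, where 6.41% and 6.39% of all pairs were called. When the young and old groups alone were fitted the Zbtb16 call was lost, and the single call was Sgk1 in oligodendrocyte-like nuclei, lower in old mice (-0.76, adjusted p 0.0275 by edgeR), where 1.22% of all pairs were called. In the fit over all 13 mice no gene of the set was called for age in oligodendrocyte-like nuclei, where 8.06% of genes were, and with no filter on low counts Fkbp5 was called higher there (1.41, adjusted p 0.0221 by edgeR). Young replicate 1 had no UMI of Errfi1 or Cdkn1a in that class, which in a sum of 59748 UMIs allows up to 50.2 CPM from counting error alone.

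Other genes known to respond to glucocorticoids, 20 in number, gave 14 that could be tested in oligodendrocyte-like nuclei. Under acute restriction 6 of the 14 were called higher and none lower, where 1.96% of genes in the class were called and 0.932% were called higher. Of the 14 changes 12 were positive, with a median log2 fold change of 0.71 beside 0.0036 over all genes. Hif3a, a hypoxia-inducible factor subunit, rose by 3.31 ± 0.28 (adjusted p 5e-08 by edgeR), Plin4, a lipid droplet protein, by 2.59 ± 0.29, and Pdk4, a kinase that restrains pyruvate oxidation, by 2.75 ± 0.37. Per1, a clock gene with a known glucocorticoid response element, rose by 1.55 ± 0.30, Arrdc2 by 1.27 ± 0.27 and Klf15, a transcription factor of fasting metabolism, by 0.98 ± 0.25. Klf9 (0.31 ± 0.28) and Ddit4 (1.16 ± 0.42) were not called. Without the libraries numbered 1 the same 6 genes were called, and with median UMIs per nucleus as a covariate 3 were, Hif3a, Plin4 and Pdk4. Over all 11 classes 0.361% and 0.0472% of pairs of gene and class were called in these fits. DESeq2 called 4 of the 11 to which it gave an adjusted p, Hif3a, Plin4, Pdk4 and Per1, where 0.163% of pairs over all classes were called. These 3 shares are not those of oligodendrocyte-like nuclei alone. In the main fit 1.96% of genes were called in that class and 0.208% of pairs over all classes. In oligodendrocyte precursor-like nuclei 2 of 8 were called higher, Gpd1 by 1.47 ± 0.28 and Hif3a by 2.29 ± 0.44, where 0.118% of genes were called. None of the 8 was called there with the depth covariate. After long-term restriction Hif3a alone of the 14 was called, higher by 1.77 ± 0.29, where 0.226% of genes in the class were called. Of the 14 changes 10 were positive, with a median of 0.39 beside 0.0055 over all genes. By edgeR 6 of the 14 had an unadjusted p below 0.05, as did 960 of 10190 genes. Hif3a, Plin4 and Pdk4 were called lower than after acute restriction, where 0.108% of genes were called, with log2 fold changes of -1.54, -1.54 and -1.73. With the depth covariate Pdk4 was not called in that comparison, and DESeq2 called none, giving an adjusted p for 1 of the 14. With age Cebpd was lower in oligodendrocyte-like nuclei (-1.69 ± 0.47, adjusted p 0.0191 by edgeR), a call lost with DESeq2 and with the depth covariate. Median UMIs per oligodendrocyte-like nucleus did not overlap between the ages, at 1173.5 to 1536 in young and 1835.5 to 2798.5 in old mice.

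Genes of the receptor and its chaperones were not called under acute restriction (0 of 7 tested of 8 listed in oligodendrocyte-like nuclei by edgeR): the receptor gene Nr3c1 had a fold change of -0.32 ± 0.17 and the mineralocorticoid receptor gene Nr3c2 of -0.35 ± 0.16. Nr3c2 was higher in old than in young mice in that class, by 0.98 ± 0.18 (adjusted p 0.000533 by edgeR), and was not called with the depth covariate. In the same sums the summed markers of granule neurons (10 genes, 1247 to 1425 CPM in old against 1002 to 1051 in young mice) and CA3 neurons (10 genes, 540 to 712 against 412 to 500) were higher in old mice without overlap. Their part in the age results of Nr3c2 and Cebpd was not tested. Of p53 target genes, the group to which Cdkn1a also belongs, none of 8 tested of 10 was called under acute restriction, with Mdm2 at -0.18 ± 0.18 and a median of 0.25. Of NF-kB target genes, the group of Nfkbia, none of 3 tested of 10 was called, with a median of -0.04, and of immediate early genes none of 2 tested of 11. In oligodendrocyte-like nuclei 1.96% of genes were called under acute restriction, so lists this short can hold no call without differing from all genes. At an unadjusted p below 0.05 in edgeR these 4 lists held 2, 1, 0 and 1 genes, in the order given, beside 1125 of all 10190 genes in the class. DESeq2 called none under acute restriction among the 7, 3, 1 and 1 genes to which it gave an adjusted p. In this class 7 of the 10 NF-kB targets did not pass the filter on low counts. Both the 7 genes and these lists were chosen with earlier results of these data known, so their direction and their counts of calls are not independent evidence.

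**Figure D5:**
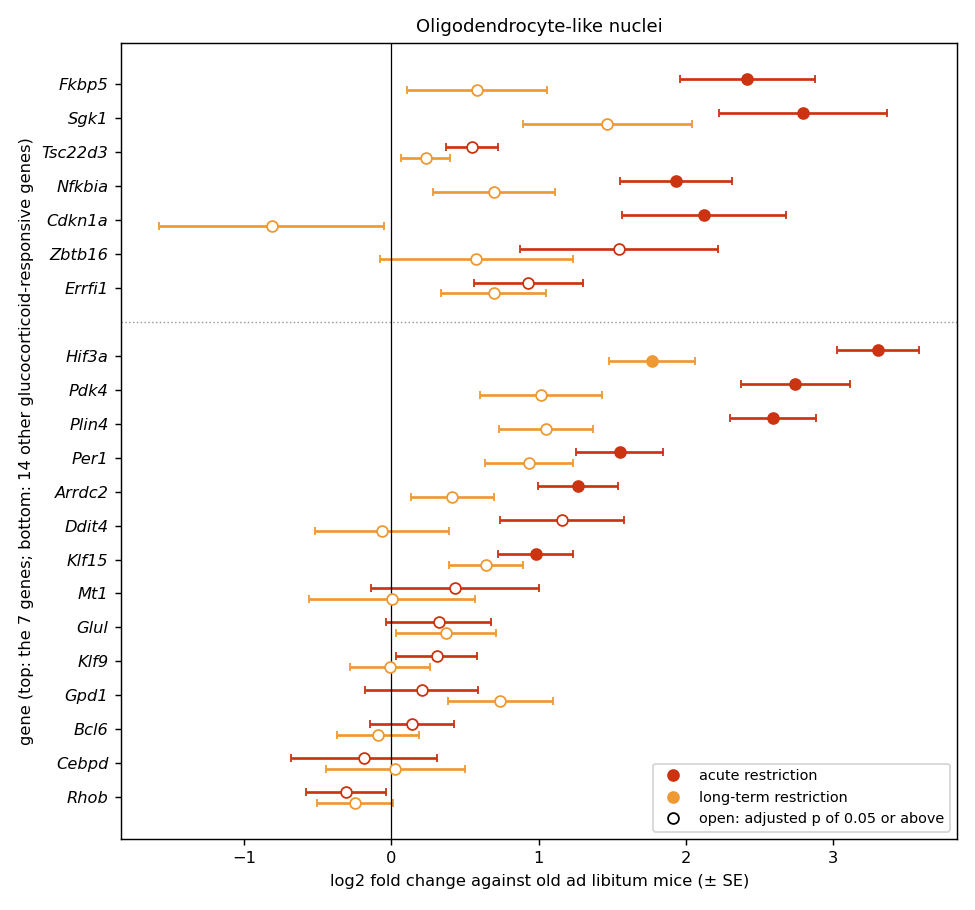
Log2 fold changes ± SE (horizontal axis) in oligodendrocyte-like nuclei for the 7 genes (above the dotted line) and 14 other glucocorticoid-responsive genes (below it) under acute and long-term restriction against the same old mice fed ad libitum; filled points have an adjusted p below 0.05. Under acute restriction 4 of the 7 and 6 of the 14 are filled, and under long-term restriction only Hif3a is.

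Across the 13 mice, the levels of the genes in oligodendrocyte-like nuclei varied together to different degrees, which is a description since the mice include 4 groups and libraries of unequal depth. Among pairs of the 7, Pearson's r of log2 CPM was highest for Sgk1 with Nfkbia (0.92) and Fkbp5 with Zbtb16 (0.90), and lowest for Zbtb16 with Errfi1 (0.20). Of 10183 other genes, the one most like Sgk1 was Per1 (r = 0.95, Spearman's rho 0.97, r = 0.94 without the 2 mice farthest from the median), and Per1 was also the one most like Nfkbia (r = 0.91). Galnt7, Arid5b and Lrrc8a were most like Fkbp5 (r = 0.94, 0.94 and 0.93), Arid5b most like Zbtb16 (0.92), Bcl2l1 most like Tsc22d3 (0.90) and Lzts2 most like Cdkn1a (0.84). For Errfi1 the highest was Rpn1 (r = 0.98), which fell to 0.78 without young replicate 1, with no Errfi1 UMI, and long-term replicate 1. Over the 9 mice without the libraries numbered 1, r was 0.92 for Sgk1 with Nfkbia, 0.93 for Fkbp5 with Zbtb16, 0.42 for Zbtb16 with Errfi1 and 0.95 for Sgk1 with Per1. For both Sgk1 and Nfkbia with Errfi1 r was 0.31 over 13 mice and 0.82 over these 9. Over the means of 11 classes, the genes most like Nfkbia and Tsc22d3 were Traf7 (r = 0.99) and Plin3 (r = 0.98).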

How the data were processed

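Nuclei from whole frozen hippocampus of 13 mice were sequenced with the 10x 3' assay, with 1 library per mouse. The authors deposited UMI counts per gene and barcode, and the submitters' processing notes name Cell Ranger 4.0.0 and mm10 without their role. Whether intronic reads were counted, and on which strand, is not given in the sources used here.

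A minimum of 500 detected genes and a mitochondrial limit of 5% of UMIs left 105427 of 105759 barcodes. The barcodes with the highest Scrublet doublet scores in each library, 0.8% per 1000 barcodes, were removed (7386), and scanpy 1.11.5 and leidenalg 0.10.2 clustered the remaining 98041 (2000 variable genes, 30 principal components, 20 neighbours, resolution 1). Clusters were named from marker lists, and unnamed ones entered no test.

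Counts were summed per mouse and class (at least 20 nuclei). edgeR 4.0.16 tested each gene by its quasi-likelihood test with TMM factors over all 13 mice. P-values were adjusted by Benjamini-Hochberg over all genes of a class, with calls below 0.05. limma 3.58.1 tested differences between classes within mice on log2 CPM with a prior count of 2, and DESeq2 1.42.0 was an alternative. In simulated oligodendrocyte-like sums edgeR recovered 189 of 200 genes changed by 2 on the log2 scale, with 11 false calls. The changed genes were drawn from those with higher mean counts, so genes as low as Cdkn1a were not covered. No effect of the libraries numbered 1 or of depth per nucleus was simulated. P-values measure the spread between these mice. Shares and floors cover counting error only. The smallest 2-sided exact permutation p for 3 against 3 mice is 0.1, so no such test was used.

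Promoter windows came from RefSeq (GRCm38.p6) and gene positions from GENCODE on the same build. The kappaB and p53 motifs were added after the windows had been read. Named genes were the 7 themselves, up to 6 called genes per list by smallest adjusted p, and those of the 3 genes over mice and 2 over classes that correlated best with each of the 7; Klf9, Ddit4, Mdm2 and Nr3c1 were named after their values were seen. The members and lists were chosen with earlier results of these data known.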

Additional observations from a re-analysis of the deposited data

Results flagged for a closer look

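Of 46 groups of 4 mice checked, 1 held a mouse far from the others, and chance alone marks about 1 in 20 such groups. Tsc22d3 in inhibitory neuron-like nuclei was at a log2 CPM of 1.22 in long-term restricted replicate 4, beside 2.013, 2.035 and 2.121 in the other mice of that group, and rested on 3 UMIs.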

How the results depend on the processing

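The fold changes of the 19 pairs of gene, class and comparison recomputed under each alternative kept their direction. Among neuronal and endothelial changes only that of Zbtb16 in granule neuron-like nuclei with age was among the 19, calls of the others were counted under each alternative, and levels were not recomputed. Of the 51 pairs, 5 were called under acute restriction (220 over all genes), 3 with the replicate block (413), 0 with median UMIs as a covariate (50), 8 when the 2 groups alone were fitted (445) and 10 without the libraries numbered 1 (383), of which 3 were among the 5, and leaving out single mice gave 0 to 7. The 1 ageing call, where 1524 pairs were called over all genes, became 5 with DESeq2 (3327 over all genes), 6 with no filter (2783), 6 with a term for the libraries numbered 1 (6792), 6 with the replicate block (5464), 0 with the gene length trend removed (670) and 5 without the libraries numbered 1 (6768). It stayed at 1, for another pair, with median UMIs as a covariate (45), and leaving out single mice gave 0 to 3. Among these, Errfi1 in granule neuron-like nuclei was called lower with age under the term for the libraries numbered 1 (-0.53), the replicate block (-0.45) and without those libraries (-0.60). Fitting 2 groups alone also gave 1 call for age and 1 between the restrictions, for other pairs, named in the report. The 1 call between long-term and acute restriction (11 over all genes) became 0 with DESeq2 (10), 4 with no filter (76), 2 with a term for the libraries numbered 1 (24), 2 with the replicate block (34), 0 with median UMIs as a covariate (7), 0 with the cluster led by Enpp6 included (12) and 6 without the libraries numbered 1 (68), and single omissions gave 0 to 1. DESeq2 gave no adjusted p for the called pair, so it could not call it. Long-term restriction gave 0 calls under each of 25 alternatives, and the difference between classes gave 0 under each of the 17 run for it. The cause of these changes was not tested. Same-numbered mice correlated above 0.1 in 6 of 16 pairs in oligodendrocyte-like and 11 of 16 in granule neuron-like nuclei, short of every pair, so the numbers were not taken to pair the mice. The 6 pairs among libraries numbered 1 did deviate together, at 0.36 to 0.78 in granule neuron-like nuclei and above 0.1 in each of the 9 classes checked except oligodendrocyte-like (0.042 to 0.15). The alternatives without the libraries numbered 1 and with the cluster included were chosen after seeing the data. Depth limits Cdkn1a, with 0 to 31 UMIs per oligodendrocyte-like sum.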
